A study of Mus musculus with 10 samples.

Results

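The growth hormone and STAT5 axis was followed through 10 genes listed by their roles, which are the receptor Ghr, the transcription factors Stat5a and Stat5b, the feedback inhibitors Socs2 and Cish, the circulating growth factor genes Igf1 and Igfals, the opposing repressor Bcl6, and 2 enzymes of the male liver, Hsd3b5 and Elovl3. All 10 were found among the 55385 gene identifiers of the count table, and all 10 passed the filter on low counts that left 14200 genes for testing. RNA had been sequenced from sorted liver cells of EP300 f/f mice on a mixed C57BL/6J and 129SV background. The library titles carry the letters HCC, for hepatocellular carcinoma, and the share of tumour cells in each library was not tested. The 2 libraries labelled EP300 KO (genotype EP300-/-) came from mice given AAV-TBG-Cre, a virus in which a hepatocyte promoter drives the recombinase, and the 2 labelled EP300 WT (genotype EP300 f/f) from mice given AAV-TBG-GFP. EP300 is a histone acetyltransferase and transcriptional coactivator. Both groups ate the liver-injuring DDC diet and carried a cMet plasmid delivered by tail vein injection, for 5 months, so no library shows this axis in an uninjured liver. The labels tie no library to an animal and give no sex, age or sorting gate, so p-values speak of the scatter among these libraries alone, and part of it may be technical.

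Growth hormone leaves the pituitary and binds its receptor on hepatocytes, where the kinase JAK2 activates STAT5, chiefly STAT5B in liver. STAT5 then switches on Igf1 and Igfals, the source of most circulating IGF-1, together with Socs2 and Cish, whose products dampen the receptor. Male rodents release the hormone in pulses and females more evenly, and the difference sets the sex-biased programme of the liver, in which BCL6 binds many of the same DNA sites as STAT5 and represses.

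Those shared sites are the reason for showing 3 sequences from RefSeq on GRCm38.p6, the assembly also called mm10. The motif searched was TTCNNNGAA, the core that STAT5 and BCL6 proteins can both recognise, which reads the same on both strands. Capitals mark each match. Of the 10 genes, 8 had a promoter entry, and Socs2 and Elovl3 had none. Bcl6 had a match in the 250 bases before both of its annotated starts, 1 before the upstream start and 3 before the internal start, and none of these bases lay in an annotated exon. The first 30 bases from the RefSeq start of Cish held 2 matches 2 bases apart. GENCODE M21 places the start of Cish further upstream. Annotated exon bases within the 250 bases before the RefSeq start sum to 250, counted over all genes there and not for Cish alone.
Bcl6, upstream start, chr16:23988853-23989102, minus strand: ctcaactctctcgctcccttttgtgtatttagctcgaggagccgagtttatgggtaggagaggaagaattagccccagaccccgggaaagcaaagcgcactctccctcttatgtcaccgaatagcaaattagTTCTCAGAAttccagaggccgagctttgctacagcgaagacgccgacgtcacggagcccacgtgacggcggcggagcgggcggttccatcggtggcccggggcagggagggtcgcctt
Bcl6, internal start, chr16:23981284-23981533, minus strand: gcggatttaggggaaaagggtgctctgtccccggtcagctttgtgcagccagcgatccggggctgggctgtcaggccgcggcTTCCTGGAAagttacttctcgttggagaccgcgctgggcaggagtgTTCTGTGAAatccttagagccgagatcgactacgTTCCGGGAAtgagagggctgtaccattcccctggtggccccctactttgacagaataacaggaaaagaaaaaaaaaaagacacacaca
Cish, from its RefSeq start, chr9:107296659-107296688, plus strand: TTCCTGGAAagTTCTTGGAAatctgtcaaa

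Of all 32851 promoter entries, 7.02% held the motif in the 250 bases before the start, and 9 entries (0.0274%) held at least 3 matches there. At least 2 matches within the whole 300-base window, which runs 50 bases past the start, occurred in 0.457% of entries. Igfals had 1 match before 2 of its 3 annotated starts. The entries of Ghr, Stat5a, Stat5b, Igf1 and Hsd3b5 held none, which says only that these letters are not in those windows. Binding of either factor was not measured.

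The libraries held 17709799 and 17811489 counts in the EP300 KO group and 18575701 and 18831671 in the EP300 WT group. Ep300 itself stood at 73.7 and 72.3 CPM (read counts scaled to a common library size after TMM adjustment) in the libraries labelled KO, against 62.3 and 57.9 CPM in those labelled WT. The gene-level count was thus higher where the gene should be deleted (log2 fold change 0.28, SE 0.07, edgeR quasi-likelihood test with Benjamini-Hochberg adjustment, adjusted p = 0.00498; adjusted p = 0.128 without EP300 WT replicate 2), and it cannot show the loss of an exon. Every direction below is between libraries as labelled. Over all genes, 4851 of 14200 (34.2%) passed at an adjusted p below 0.05, 2366 higher (16.7%) and 2485 lower (17.5%), or 1846 higher and 3056 lower when libraries were scaled by total counts alone.

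The 2 groups also differed in a sex chromosome gene. Xist, the RNA that silences an X chromosome in female cells, had 134 and 81.1 CPM in the KO-labelled libraries, against 0.158 and 0.104 CPM in the WT-labelled libraries. The Y-linked genes Ddx3y, Eif2s3y, Kdm5d and Uty were present in all 4 libraries, and none passed the test (adjusted p = 0.193, 0.637, 0.336 and 0.0807). Ddx3y, for example, had 55.2 and 46.7 CPM in the KO-labelled libraries and 56.8 and 56.0 CPM in the WT-labelled libraries. RNA with Y-linked transcripts was therefore measured in both groups, and RNA with Xist at more than trace level in the KO-labelled group. Xist moves with the label in all 4 libraries, so the label and whatever the Xist RNA marks cannot be told apart in the values below.

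**Figure D1:**
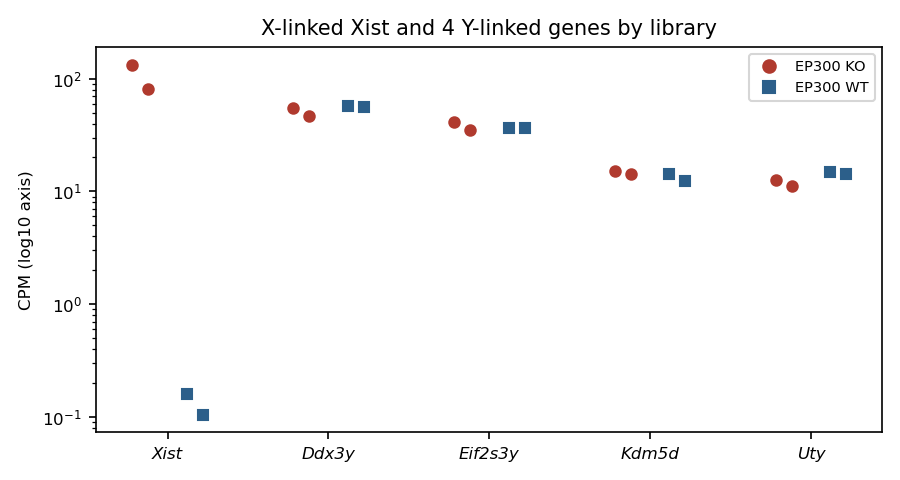
CPM on a log10 axis for the X-linked RNA Xist and 4 Y-linked genes, with 1 point per library, EP300 KO as circles and EP300 WT as squares. Xist lies at 134 and 81.1 CPM in the KO-labelled libraries and at 0.158 and 0.104 CPM in the WT-labelled ones, whereas all 4 Y-linked genes lie above 10 CPM in every library.

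All 10 axis genes passed the test, 7 higher and 3 lower in the KO-labelled libraries, where 34.2% of all genes passed. In none of the 10 did the groups overlap, which was also so for 66.4% of all genes tested. The median log2 fold change was 0.44 over the 10, against -0.01 over all genes. The changes did not run one way along the pathway. The receptor and the IGF genes were higher, the feedback inhibitors were lower, STAT5 moved little, and the repressor Bcl6 and both male-liver enzymes were far higher. Changes of at least 2-fold were seen in Ghr, Socs2, Bcl6, Hsd3b5 and Elovl3, and 8.16% of all genes passed with a change of that size.

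**Figure D2:**
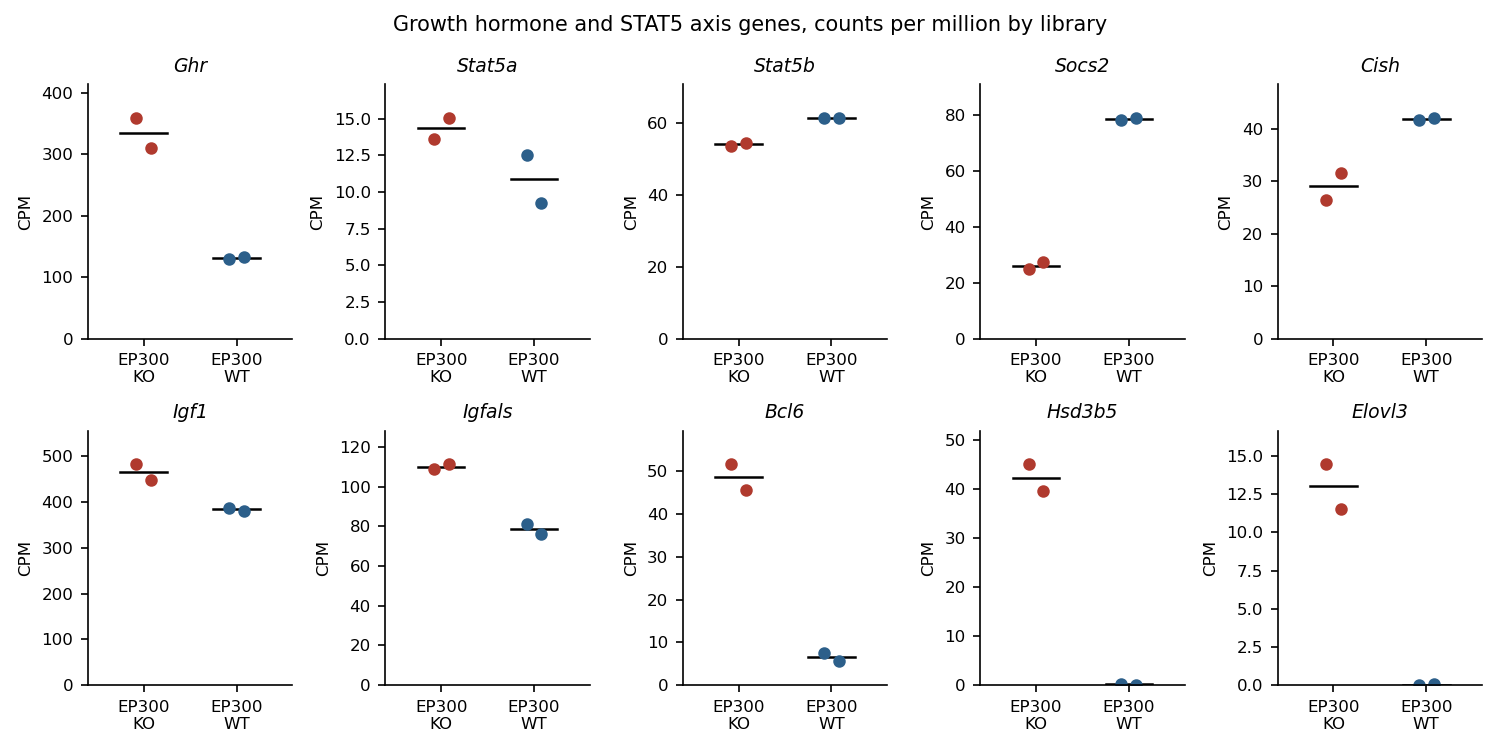
CPM of each of the 10 axis genes, with 1 point per library, the black line at the group mean of 2 libraries, and a separate linear axis from 0 for each gene. Ghr, Bcl6, Hsd3b5 and Elovl3 stand well above the WT-labelled libraries in both KO-labelled libraries, Socs2 stands well below them, and Stat5a, Stat5b and Igf1 differ little.

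The receptor came first. Ghr (chromosome 15, 3317760 to 3583492, minus strand, mm10), which encodes the growth hormone receptor, had 360 and 309 CPM in the KO-labelled libraries, against 129 and 133 CPM in the WT-labelled libraries. Both KO-labelled libraries were above both others, and the difference between the KO-labelled replicates was small beside the gap. Ghr averaged 334 ± 35.5 CPM in KO and 131 ± 2.81 CPM in WT (SD, n = 2 each), a 2.56-fold rise (log2 fold change 1.35, SE 0.07, edgeR adjusted p = 4.72e-10). It passed in all 12 alternative settings, with log2 fold changes of 1.25 to 1.46. Prlr, the related prolactin receptor, to which primate but not mouse growth hormone also binds, went the other way, with 43.3 and 41.1 CPM in KO and 91.6 and 93.8 CPM in WT (log2 fold change -1.14, SE 0.07, edgeR adjusted p = 2.85e-09).

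The kinase and the transcription factors changed by small amounts. Jak2 had 17.5 and 16.2 CPM in the KO-labelled libraries and 21.3 and 20.0 CPM in the WT-labelled libraries (log2 fold change -0.30, SE 0.10, edgeR adjusted p = 0.0336). Stat5b (chromosome 11, 100780731 to 100850724), the main STAT5 of liver, had 53.6 and 54.4 CPM in KO and 61.5 CPM in both WT libraries (log2 fold change -0.19, SE 0.07, edgeR adjusted p = 0.0475). Its neighbour Stat5a (chromosome 11, 100859351 to 100885169) had 13.6 and 15.1 CPM in KO and 12.5 and 9.25 CPM in WT (log2 fold change 0.40, SE 0.14, edgeR adjusted p = 0.0381). Both groups were separate for each gene, but the gap in Stat5a between KO replicate 1 and WT replicate 1 was smaller than the gap between the WT replicates. Neither call was stable: Stat5b passed in 5 of the 12 alternative settings and Stat5a in 7. The pair also share sequence, since 8.52% of the 50-base words of Stat5a transcripts and 11.0% of those of Stat5b occurred in the transcripts of another gene, in each case chiefly the other STAT5, and the sources used here do not say how such reads were counted. The related factor Stat3, which answers to interleukin-6 and growth hormone, fell, with 117 and 112 CPM in KO and 149 and 151 CPM in WT (log2 fold change -0.39, SE 0.06, edgeR adjusted p = 0.000113).

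The feedback inhibitors, both direct STAT5 targets, fell. Socs2 (chromosome 10, 95385362 to 95417180), whose product helps to degrade the growth hormone receptor, had 24.8 and 27.2 CPM in the KO-labelled libraries, against 78.2 and 79.0 CPM in the WT-labelled libraries. The groups lay far apart and replicates of each were close. Socs2 averaged 26.0 ± 1.75 CPM in KO, 33.1% of the 78.6 ± 0.558 CPM in WT (SD, n = 2 each). The log2 fold change was -1.60 (SE 0.08, edgeR adjusted p = 2.03e-10), and it lay between -1.66 and -1.52 in the alternatives. Cish, which encodes the SH2 protein CIS, had 26.4 and 31.7 CPM in KO and 41.7 and 42.2 CPM in WT. Its KO-labelled replicates differed by more than its WT-labelled ones, and both were below. The log2 fold change was -0.53 (SE 0.09, edgeR adjusted p = 0.000272), and it passed in all 12 alternatives, at -0.66 to -0.39. Cish (chromosome 9, 107296026 to 107302784) overlaps the gene models Gm17040 and Gm17041 over 11.5% of its exon bases. Socs3, an inhibitor chiefly of cytokine signals, also fell (28.4 and 28.7 CPM in KO, 34.9 and 36.6 CPM in WT, log2 fold change -0.32, SE 0.08, edgeR adjusted p = 0.00576). It was not picked by the naming rule given below. Of the other Socs genes read, Socs6 fell (log2 fold change -0.37, SE 0.11, edgeR adjusted p = 0.019), and Socs1, Socs4, Socs5 and Socs7 did not pass.

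Ratios of read counts within a library do not depend on how libraries are scaled, and they show the receptor and its feedback genes moving apart. For each Ghr count there were 0.0689 and 0.0881 Socs2 counts in the KO-labelled libraries, against 0.607 and 0.595 in the WT-labelled libraries. For Cish the same ratio was 0.0736 and 0.102 in KO and 0.324 and 0.318 in WT. Between the 2 feedback genes, there were 0.937 and 0.860 Socs2 counts per Cish count in KO and 1.88 and 1.87 in WT. With 2 libraries a group no exact permutation test of a ratio can reach 0.05, so these are given without a test.

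**Figure D3:**
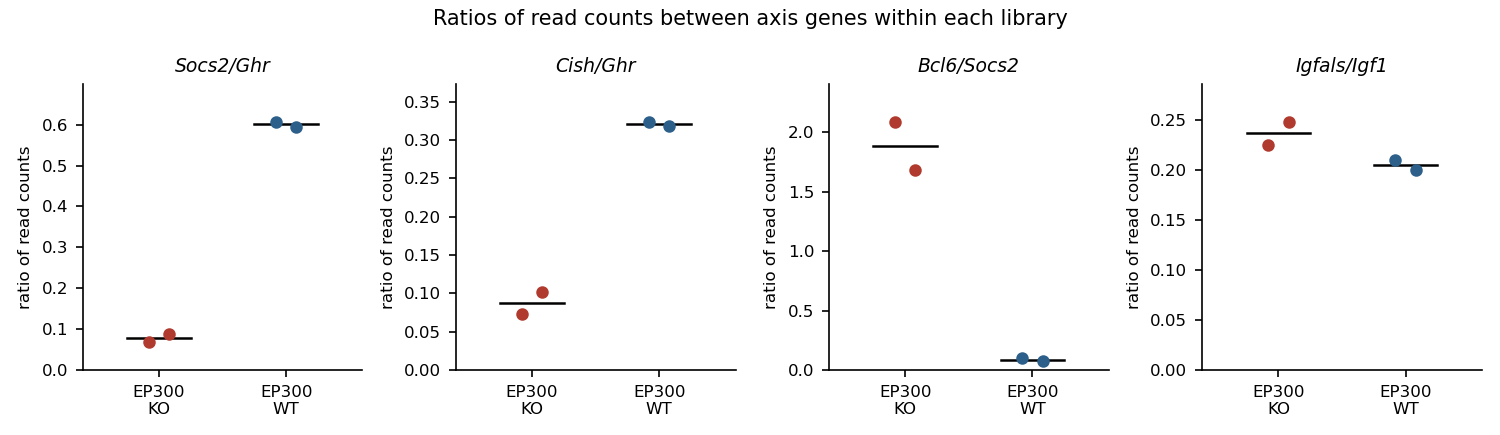
Ratios of read counts between pairs of axis genes within each library, with 1 point per library and the black line at the group mean of 2 libraries; each axis starts at 0. Socs2 per Ghr is 0.0689 and 0.0881 in the EP300 KO libraries and 0.607 and 0.595 in EP300 WT, and Bcl6 per Socs2 is 2.09 and 1.68 in KO and 0.0970 and 0.0717 in WT, whereas Igfals per Igf1 stays between 0.200 and 0.248.

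The hormone genes downstream rose modestly. Igf1 (chromosome 10, 87858265 to 87937042), the gene of the growth factor IGF-1, had 483 and 449 CPM in the KO-labelled libraries and 387 and 381 CPM in the WT-labelled libraries. The groups did not overlap, but the rise was 1.21-fold (log2 fold change 0.28, SE 0.06, edgeR adjusted p = 0.00113; adjusted p = 0.0720 without EP300 WT replicate 2). Igfals (chromosome 17, 24865997 to 24882010), which encodes the acid-labile subunit that holds IGF-1 in the blood, had 109 and 111 CPM in KO and 81.2 and 76.3 CPM in WT. It rose 1.40-fold (log2 fold change 0.48, SE 0.06, edgeR adjusted p = 2.48e-05), and passed in all 12 alternatives. Relative to Igf1, Igfals had 0.225 and 0.248 counts per Igf1 count in KO and 0.210 and 0.200 in WT. In Igf1 and Igfals the direction was thus opposite to that of Socs2 and Cish, although all 4 are STAT5 targets.

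Of 16 other genes of the IGF axis, 12 could be tested, and 0 rose and 5 fell, where 16.7% of all genes tested rose and 17.5% fell. The binding protein gene Igfbp1, which insulin suppresses in liver, had 403 and 420 CPM in KO and 2353 and 2288 CPM in WT (log2 fold change -2.50, SE 0.05, edgeR adjusted p = 8.71e-15). Igfbp3, whose product joins IGF-1 and the acid-labile subunit in the circulating complex, had 10.01 and 10.52 CPM in KO and 36.1 and 37.2 CPM in WT (log2 fold change -1.83, SE 0.10, edgeR adjusted p = 5.76e-10). Among the 3 genes of that complex, the growth factor and the acid-labile subunit were therefore higher and the binding protein lower. Stc1, which encodes a stanniocalcin, had 1.74 and 2.47 CPM in KO and 15.0 and 14.8 CPM in WT (log2 fold change -2.82, SE 0.18, edgeR adjusted p = 4.01e-09). The insulin receptor gene Insr also fell, with 116 CPM in both KO libraries and 161 and 155 CPM in WT (log2 fold change -0.45, SE 0.06, edgeR adjusted p = 2.51e-05), and is named after its values were seen. The receptor gene Igf1r was low in all libraries and did not pass (2.43 and 3.51 CPM in KO, 3.74 and 2.75 CPM in WT; log2 fold change -0.13, adjusted p = 0.747 with edgeR). Igf2, the fetal growth factor gene, was under the filter, with 0 and 2 counts in KO and 19 and 8 counts in WT, a ratio of 0.0817 (95% counting interval 0.00941 to 0.325, exact binomial, counting error only). The gene models Gm49394 and Igf2os overlap 64.5% of the exon bases of Igf2, and how shared reads were counted is not given.

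The repressor Bcl6 showed the largest change among the regulators of the axis. Bcl6 (chromosome 16, 23965052 to 23988852, minus strand), whose 2 annotated starts are those shown above, had 51.7 and 45.6 CPM in the KO-labelled libraries, against 7.58 and 5.66 CPM in the WT-labelled libraries. Every KO-labelled value was several times every WT-labelled value. Bcl6 averaged 48.7 ± 4.27 CPM in KO and 6.62 ± 1.36 CPM in WT (SD, n = 2 each), a 7.35-fold rise (log2 fold change 2.88, SE 0.12, edgeR adjusted p = 3.60e-11) that lay between 2.69 and 3.11 on the log2 scale in the alternatives. Per Socs2 count there were 2.09 and 1.68 Bcl6 counts in KO and 0.0970 and 0.0717 in WT, so which of the 2 had more reads was reversed between the groups. Gene-level counts do not show which start the transcripts used. Lymphocytes also make Bcl6, and the summed level of 8 lymphocyte markers was 1.10 and 1.84 CPM in KO and 1.47 and 1.56 CPM in WT. The part of lymphocytes in the Bcl6 values was not tested.

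**Figure D4:**
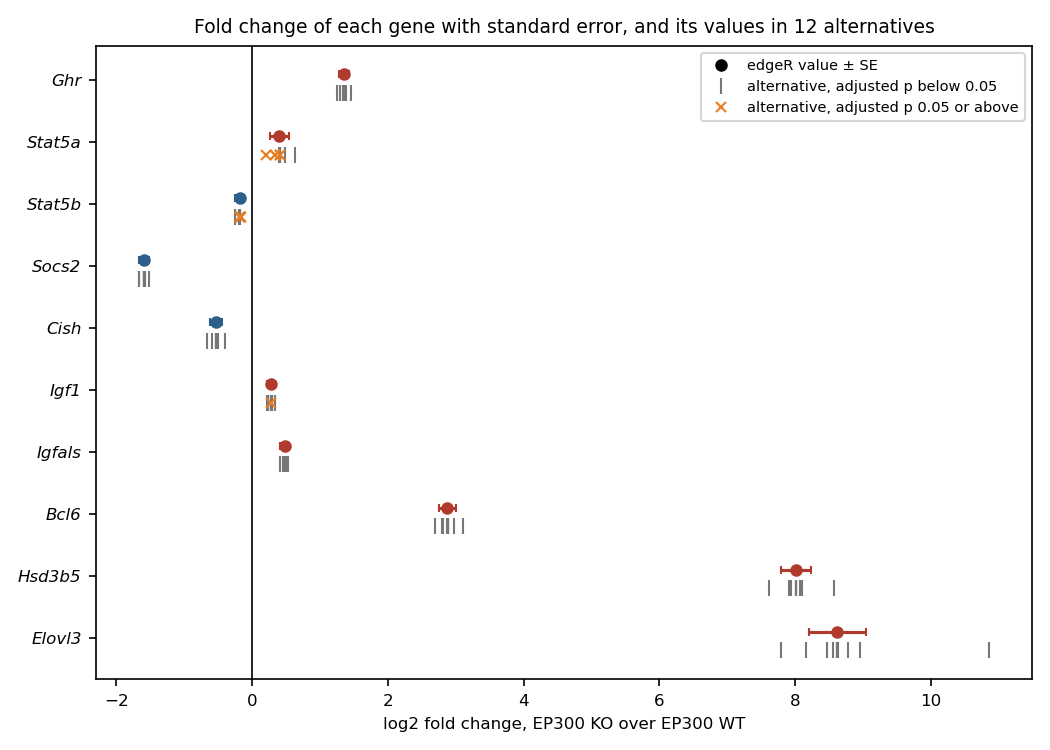
Log2 fold change of EP300 KO over EP300 WT for each axis gene, with the edgeR value and its standard error (circle) and, beneath it, the values in 12 alternative settings as grey ticks where the adjusted p was below 0.05 and as crosses where it was not. All directions held; crosses appear for Stat5a, Stat5b and Igf1.

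The 2 male-liver enzymes were clearly expressed in the KO-labelled group and nearly undetected in the WT-labelled group. Hsd3b5 (chromosome 3, 98618634 to 98630252), a steroid-metabolising enzyme of the adult male mouse liver, had 45.0 and 39.5 CPM in KO, against 0.211 and 0.104 CPM in WT. In reads these were 1466 counts in KO and 6 in WT, a ratio of 269 (95% counting interval 123 to 735), with an edgeR adjusted p = 1.95e-13. Elovl3 (chromosome 19, 46131897 to 46135694), an elongase of very long fatty acids, had 14.5 and 11.6 CPM in KO and 0 and 0.052 CPM in WT. Its 451 counts in KO stood against 1 in WT, a ratio of 497 (95% counting interval 88.8 to 19700), with an edgeR adjusted p = 2.29e-10. The WT-labelled values of both genes rest on so few reads that the intervals, and not the ratios, give their size.

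Among near relatives of both enzymes, rises were smaller and some genes fell. Of 6 other Hsd3b genes, Hsd3b2 rose (36.5 and 28.6 CPM in KO, 17.8 and 21.6 CPM in WT; log2 fold change 0.73, SE 0.12, edgeR adjusted p = 0.000181), and so did Hsd3b3 (104 and 103 CPM in KO, 72.1 and 71.6 CPM in WT; log2 fold change 0.52, SE 0.06, edgeR adjusted p = 7.55e-06). Hsd3b1 fell, with 3 counts in KO and 138 in WT, a ratio of 0.0240 (95% counting interval 0.00488 to 0.0715). Hsd3b7 had 22 counts in KO and 25 in WT and did not pass (adjusted p = 0.957 with edgeR). The gene models 9430064I24Rik and Gm49388 overlap 99.2% of its exon bases. How such shared reads were counted is not given, so these counts say little of Hsd3b7 itself. Hsd3b6 had 1 count in all, and Hsd3b4 had 0 counts in all 4 libraries. Hsd3b5 shares 21.2% of its 50-base transcript words with other genes, chiefly Gm10681, Hsd3b4 and Gm4450, so its counts could in part be theirs. Among the other elongase genes, Elovl6, which lengthens palmitate, rose (110 and 94.7 CPM in KO, 72.7 and 73.6 CPM in WT; log2 fold change 0.49, SE 0.07, edgeR adjusted p = 9.52e-05). Elovl7, Elovl5 and Elovl2 fell by 1.37, 0.58 and 0.35 on the log2 scale, Elovl1 did not pass, and Elovl4 had 0 counts. Of the elongase genes tested here, Elovl3 thus had the largest rise and Elovl6 the only other one that passed.

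Set against each other per kilobase of exon, Igf1 was the most abundant axis gene in both groups, at 47.0 ± 2.41 CPM per kilobase in KO and 38.8 ± 0.442 in WT (SD, n = 2 each). In the KO-labelled libraries the order after it was Ghr, Igfals, Hsd3b5, Stat5b, Bcl6, Elovl3, Cish, Socs2 and Stat5a, in which Ghr and Igfals, and Bcl6 and Elovl3, overlapped in range. In the WT-labelled libraries the order was Igfals, Ghr, Stat5b, Socs2, Cish, Stat5a, Bcl6, Hsd3b5 and Elovl3, with no neighbours overlapping. The places of Hsd3b5 and Elovl3 there rest on 6 and 1 counts, so the order between them is uncertain. Socs2 was thus ranked 9 in KO and 5 in WT, and Hsd3b5 was ranked 4 in KO and 9 in WT.

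By distance between centred log2(CPM + 1) values over the 4 libraries, the genes nearest to Igf1 were Nde1, Derl2 and Ncbp1, at distances of 0.018, 0.0219 and 0.0221, and those nearest to Socs2 were Abcc4 and Smox, at 0.0787 and 0.106. With 4 libraries in 2 groups the measure mostly matches fold changes, which were 0.29, 0.29 and 0.29 on the log2 scale for the first 3 genes and -1.57 and -1.54 for the others.

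Of 23 other genes listed with growth hormone receptor signalling, 1 rose, 8 fell and 14 did not pass. Among all genes tested, 16.7% rose and 17.5% fell. The 23 include the related receptor gene Prlr. The median log2 fold change was -0.26 over the 23, against -0.01 over all genes. Besides Prlr, the largest changes by rule were in the adaptor genes Grb10 (4.11 and 3.62 CPM in KO, 8.48 and 6.70 CPM in WT; log2 fold change -0.97, SE 0.19, edgeR adjusted p = 0.000791) and Sh2b2 (3.18 and 3.74 CPM in KO, 5.32 and 7.02 CPM in WT; log2 fold change -0.83, SE 0.21, edgeR adjusted p = 0.00523). Leaving out EP300 WT replicate 2 ended the call of Sh2b2 (adjusted p = 0.147), and 4 of the 23 genes then fell and 0 rose. Leaving out EP300 WT replicate 1, 5 fell. Socs1 did not pass (log2 fold change 0.66, adjusted p = 0.275 with edgeR).

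Regulators of the sexual pattern of the liver moved in both directions. Cux2, a repressor of male genes that evenly delivered growth hormone induces in female liver, had 25.5 and 15.9 CPM in the KO-labelled libraries and 63.0 and 62.9 CPM in the WT-labelled libraries (log2 fold change -1.61, SE 0.14, edgeR adjusted p = 1.49e-07). The transcription factor gene Cebpb had 240 and 322 CPM in KO and 119 and 122 CPM in WT (log2 fold change 1.22, SE 0.10, edgeR adjusted p = 8.04e-08). Esr1, the estrogen receptor alpha gene, fell (log2 fold change -0.58, SE 0.08, edgeR adjusted p = 2.89e-05), as did Tox (-0.78) and Trim24 (-0.47), all 3 named after their values were seen. Onecut1, a growth hormone-responsive factor, did not pass (28.2 and 32.2 CPM in KO, 32.5 CPM in both WT libraries; adjusted p = 0.390 with edgeR). The gene model Gm20649 overlaps 52.8% of the exon bases of Onecut1. In all, 3 of 16 such regulators rose and 7 fell, where 16.7% of all genes tested rose and 17.5% fell. Without EP300 KO replicate 1, 5 rose, and without EP300 WT replicate 1 and replicate 2, 2 and 1 rose.

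The male and female gene lists bracketed these values. Over all genes tested, 16.7% rose and 17.5% fell. Of 25 male-biased liver genes, 24 rose and 0 fell, with a median log2 fold change of 2.86, and Mup7, Mup11 and Mup1 had the largest rises, on 2, 0 and 0 counts in the WT-labelled group. Mup7, a pheromone carrier of male urine, had 4539 and 3982 CPM in KO, and reads of these closely similar genes cannot be divided among them with certainty. Of 27 female-biased genes, 25 could be tested, and 19 fell and 5 rose, with a median of -1.26. Hao2, a peroxisomal oxidase, had 2 counts in KO and 118 in WT, a ratio of 0.0187 (95% counting interval 0.00224 to 0.0690). Sult2a1, a sulfotransferase, went against that list with 26.0 and 16.7 CPM in KO and 0.527 and 0.416 CPM in WT (log2 fold change 5.48, SE 0.29, edgeR adjusted p = 6.17e-10), as did Cyp3a41b, with 41 counts in KO and 2 in WT. The libraries with Xist RNA were thus also those with the higher male-biased transcripts, and with Bcl6 high and Cux2 low.

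**Figure D5:**
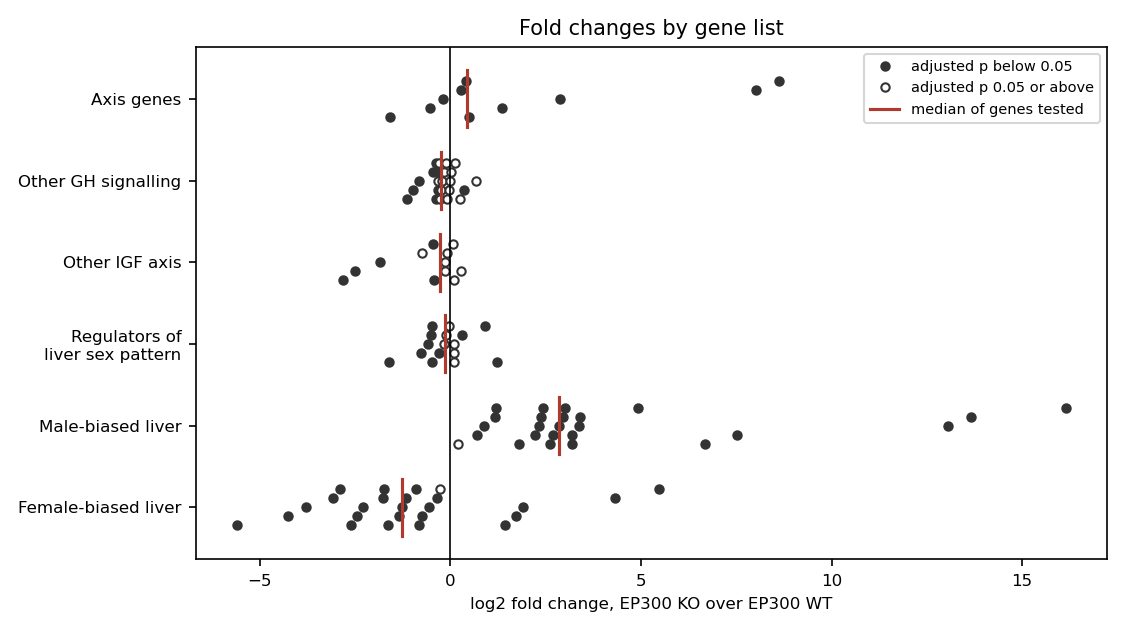
Log2 fold change of EP300 KO over EP300 WT for every tested gene of 6 lists, filled where the adjusted p was below 0.05, with the list's median as a red line. The medians are 0.44 for the axis genes, -0.26 for other growth hormone signalling, -0.28 for other IGF axis genes, -0.13 for regulators of the sexual pattern, 2.86 for male-biased and -1.26 for female-biased liver genes.

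The libraries were dominated by hepatocyte transcripts, with 12 hepatocyte markers summing to 112300 and 114800 CPM in KO and 117200 and 116300 CPM in WT. Alb alone had 71370 and 73850 CPM in KO and 78350 and 78090 CPM in WT. Of the 12 markers 8 rose and 3 fell, where 16.7% of all genes tested rose and 17.5% fell. The amino acid enzyme genes Tdo2 and Tat and the gluconeogenic gene Pck1 rose most (log2 fold changes 0.94, 0.90 and 0.70). Apoa1, Serpina1a and Alb fell (log2 fold changes -0.67, -0.20 and -0.11), and Hnf4a did not pass. Markers of other liver cells were present in both groups. The 10 stellate markers summed to 195 and 188 CPM in KO and 303 and 296 CPM in WT (6 fell, 0 rose), led by Reln, Acta2 and Lum. The 9 endothelial markers summed to 344 and 308 CPM in KO and 392 and 383 CPM in WT (5 fell, 0 rose), led by Vwf, Lyve1 and Tek. The 10 biliary markers summed to 119 and 122 CPM in KO and 187 and 190 CPM in WT (1 rose, 3 fell, 4 could not be tested), with Prom1, Sox9 and Spp1 lower and Cldn4 higher. Spp1 alone had 95.6 and 95.8 CPM in KO and 126 and 128 CPM in WT, whereas Krt19, Krt7, Cftr and Sctr were each below 1 CPM in every library. The 10 macrophage markers summed to 660 and 651 CPM in KO and 628 and 611 CPM in WT (3 rose, 1 fell, 6 did not pass). Marco, Timd4 and Cd68 were higher and C1qa lower, and those that did not pass included Clec4f, Vsig4 and Csf1r. The 6 neutrophil markers summed to 6.13 and 3.91 CPM in KO and 8.43 and 9.46 CPM in WT, with Mpo and S100a9 lower. With EP300 WT replicate 1 left out, 2 stellate and 3 endothelial markers fell, and with replicate 2 left out, 3 stellate markers fell, 1 macrophage marker rose and 0 neutrophil markers fell. With either left out, 1 hepatocyte marker fell. No marker of these lists was at 0 in all 4 libraries. The part of these cells in the axis values was not tested, and in bulk libraries fewer cells of a type cannot be told apart from less RNA per cell.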

How the data were processed

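For the EP300 libraries the authors deposited 1 table of raw counts, whole numbers per gene. Its name carries Hisat, whereas the submitters' processing notes list mm10 as the build and STAR, HTSeq and DESeq2 as tools, without saying what each did. The annotation, the strand setting and the handling of shared reads are not given in the sources used here. Of 8 columns, 4 matched no sample and were not used, and the 6 diet libraries, deposited as separate tables, were not used here. Symbols matched 55144 of 55385 identifiers. Coordinates and exon lengths come from GENCODE M21 on mm10.

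Counts were tested with edgeR 4.0.16 in R 4.3.3 (quasi-likelihood F test with group as its single term and 2 residual degrees of freedom, after TMM scaling and a filterByExpr minimum of 10 counts), with Benjamini-Hochberg adjustment over all 14200 genes at 0.05. Each standard error is the size of the log2 fold change over the root of its F value. The common biological coefficient of variation came to 5.47%. Libraries of a group differed beyond sampling noise (chi-square per degree of freedom 5.50 in KO and 2.60 in WT). Genes were chosen, and lists written, with earlier results of these data known, so no list gets a test of its own. From each list the 3 genes with the largest changes among those past the threshold and at least 1 CPM in the higher group were named, and Jak2, Stat3, Igf2, Igf1r and Igfbp3 always. Some genes that the rule names are not reported here. Alternatives were DESeq2 1.42.0, limma-voom (limma 3.58.1), other scalings and filters, the 20 most abundant genes left out, a replicate block, and each library left out.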

Additional observations from a re-analysis of the deposited data

How the results depend on the processing

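Over 12 alternatives no axis gene changed direction, and 7 to 10 of the 10 passed. Stat5a passed in 7 alternatives (log2 fold change 0.21 to 0.64, adjusted p up to 0.393), Stat5b in 5 (-0.25 to -0.16, adjusted p up to 0.257) and Igf1 in 11 (0.21 to 0.34). Over all genes, 1614 were lower with DESeq2. Without a filter on low counts 2703 passed, 1416 higher and 1287 lower, of 24666 tested. With a library left out, 2306 to 5154 passed, 1160 to 2574 higher and 1146 to 2580 lower, the fewest when EP300 WT replicate 2 was left out. When replicate 1 of that group was left out, 2602 passed. Leaving out a library leaves 1 in its group, which is assumed to vary like the other group. The cause of these differences was not tested. The median log2 fold change of all genes was -0.07 with library size alone, against -0.01 with TMM.

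With the replicate number as a block, 5190 genes passed, and all 10 axis genes did. The numbers are not known to pair libraries, and deviations of same-numbered libraries did not go together (r = -0.000659 across genes, which are not independent replicates).

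Hsd3b5 and Elovl3 in the WT-labelled libraries rest on 6 and 1 counts, so their ratios are limited by depth. Intervals cover counting error only.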

Other observations

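Loss of growth hormone signalling in mouse liver is known for fat storage, and 14 lipid genes of that setting were read beside the axis. Of the 12 that could be tested, 3 rose, 4 fell and 5 did not pass, with a median log2 fold change of -0.15. The 5 that did not pass were Cd36, Pparg, Cidec, Vldlr and Fasn. Over all genes tested, 16.7% rose and 17.5% fell. Plin4, a lipid droplet protein, had 41.5 and 49.1 CPM in the KO-labelled libraries and 20.1 and 17.9 CPM in the WT-labelled libraries (log2 fold change 1.25, SE 0.10, edgeR adjusted p = 7.47e-08). Lpin1, a phosphatidate phosphatase, rose by 0.67 on the log2 scale (SE 0.06, edgeR adjusted p = 4.33e-07), with 696 and 617 CPM in KO and 421 and 404 CPM in WT. Lpl, lipoprotein lipase, which adult hepatocytes hardly make, had 162 and 134 CPM in KO and 274 and 289 CPM in WT (log2 fold change -0.93, SE 0.08, edgeR adjusted p = 1.08e-07). Without EP300 WT replicate 1, 2 of the lipid genes fell.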
